A study of Mus musculus with 6 samples.

Results

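The posterior part of the mouse Hoxa cluster and the regulatory landscape upstream of Hoxa13 were examined for chromatin accessibility in distal limb buds with and without HOX13. Members were all accessible regions (peaks) of the deposited wild type versus Hox13-/- comparison whose midpoint lay on chromosome 6 (mm10) from just past the 3′ end of Hoxa5 to just beyond the start of Jazf1, which is 60.881 kb on the cluster side and 839.12 kb on the upstream side of the Hoxa13 transcription start at position 52260880. This gave 109 of 61954 peaks, of which 31 lay in the cluster and 78 upstream of Hoxa13. Positions below are distances of a peak's midpoint from that start, positive when upstream.

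The assay was ATAC-seq, in which the transposase Tn5 inserts sequencing adapters into open chromatin, on distal forelimb buds at E11.5. There were 2 wild-type libraries and 2 Hox13-/- libraries, the latter from embryos homozygous for null alleles of both Hoxa13 (Hoxa13Str) and Hoxd13 (Hoxd13lacZ). All 4 embryos were of mixed C57Bl/6 x 129 background, and each library came from 50000 cells of 1 embryo, its left and right buds pooled. A further 2 libraries, from proximal limb buds, were not analysed here. Both genes are inactive in the mutant, so the effects of Hoxa13 and of Hoxd13 cannot be told apart, and in bulk tissue neither can fewer cells of a type and lower accessibility per cell. Values are rLog, a log2 scale that is scaled for library size and shrunk towards each peak's mean. The values carry no read numbers, so each peak's depth is unknown.

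Hox genes of the cluster are switched on in order along the growing limb, with Hoxa9 to Hoxa11 acting in more proximal segments and Hoxa13 in the prospective hand. HOXA13 and HOXD13, together HOX13, are homeodomain transcription factors required for digit formation. Enhancers that drive Hoxa13 in the digits are spread over the flank upstream of it, among and within the neighbouring genes Evx1 (a homeobox gene), Hibadh (a mitochondrial enzyme of valine breakdown), Tax1bp1 (an autophagy receptor) and Jazf1 (a zinc finger cofactor). Which of the peaks below coincide with tested enhancers was not analysed here.

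Sequences of 6 upstream peaks are shown because they had the largest differences upstream of Hoxa13, 3 in each direction. They were read from the plus strand of GRCm38, which is mm10, as a whole peak or as the 300 bases around its midpoint. Capitals mark letters that HOX13 proteins bind, namely CAATAAA or TCGTAAA on either strand, or a broader form, TAAA preceded by A or G, then by A, C or T, then by C or T at both further bases. The first 3 peaks were lower in Hox13-/- and the last 3 were higher.
Peak at +762.8 kb (chr6:53023541-53023840), no match: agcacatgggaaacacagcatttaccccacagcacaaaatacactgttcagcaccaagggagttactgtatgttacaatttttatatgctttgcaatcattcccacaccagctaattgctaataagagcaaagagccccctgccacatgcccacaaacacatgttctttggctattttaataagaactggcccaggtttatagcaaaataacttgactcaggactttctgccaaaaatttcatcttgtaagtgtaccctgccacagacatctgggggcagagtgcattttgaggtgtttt
Peak at +604.1 kb (chr6:52864882-52865171), 1 match to CAATAAA that is also 1 match to the broader form: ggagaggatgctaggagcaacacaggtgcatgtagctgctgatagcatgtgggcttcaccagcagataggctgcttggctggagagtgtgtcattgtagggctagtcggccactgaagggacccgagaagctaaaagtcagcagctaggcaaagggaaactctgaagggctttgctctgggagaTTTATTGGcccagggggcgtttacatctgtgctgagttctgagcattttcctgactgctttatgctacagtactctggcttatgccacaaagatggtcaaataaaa
Peak at +758.1 kb (chr6:53018836-53019028), 2 matches to the broader form: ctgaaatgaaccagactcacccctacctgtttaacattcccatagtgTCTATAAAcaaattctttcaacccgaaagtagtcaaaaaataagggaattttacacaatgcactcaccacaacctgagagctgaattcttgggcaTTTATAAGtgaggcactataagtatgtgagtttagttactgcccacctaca
Peak at +10.3 kb (chr6:52271080-52271379), no match: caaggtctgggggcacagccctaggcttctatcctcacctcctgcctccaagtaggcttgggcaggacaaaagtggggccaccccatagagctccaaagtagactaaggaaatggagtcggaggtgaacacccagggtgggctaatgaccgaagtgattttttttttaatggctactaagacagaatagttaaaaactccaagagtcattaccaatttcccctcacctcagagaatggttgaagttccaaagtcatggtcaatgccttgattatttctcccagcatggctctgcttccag
Peak at +541.5 kb (chr6:52802280-52802579), 1 match to CAATAAA: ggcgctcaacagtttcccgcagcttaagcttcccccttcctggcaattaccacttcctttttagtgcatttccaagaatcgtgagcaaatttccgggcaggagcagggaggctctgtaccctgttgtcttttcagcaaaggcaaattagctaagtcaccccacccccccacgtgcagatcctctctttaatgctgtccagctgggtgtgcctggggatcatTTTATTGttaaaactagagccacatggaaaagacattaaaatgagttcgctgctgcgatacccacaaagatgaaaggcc
Peak at +680.2 kb (chr6:52940914-52941213), no match: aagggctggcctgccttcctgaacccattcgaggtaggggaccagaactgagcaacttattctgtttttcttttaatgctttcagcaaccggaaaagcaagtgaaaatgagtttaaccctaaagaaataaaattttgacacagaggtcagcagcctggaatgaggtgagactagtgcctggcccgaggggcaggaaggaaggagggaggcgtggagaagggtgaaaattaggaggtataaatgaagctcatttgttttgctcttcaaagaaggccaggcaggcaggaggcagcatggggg
The strongest difference in each direction upstream of Hoxa13, at +762.8 kb and at +10.3 kb, thus lay in a window without these letters. Absence of a match says only that these letters are not in the window.

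Accessibility of the locus differed between the genotypes in both directions, and higher peaks outnumbered lower ones. Of the 109 peaks, the test called 14 lower and 23 higher in Hox13-/- (adjusted p below 0.05, limma over all 61954 peaks, two-sided, Benjamini-Hochberg adjustment), and 72 were not called. Over all peaks 8.31% were called lower, 11.4% higher and 19.7% either way, against 12.8%, 21.1% and 33.9% in the locus. The median difference, Hox13-/- minus wild type, was 0.15 on the log2 scale in the locus and −0.01 over all peaks. Both mutant libraries lay above both wild-type libraries at 52 peaks and below them at 24, where 29.7% and 29.6% of all peaks did so. A call favours such separation, so separate genotypes at a called peak below are a description and not further support. A difference beyond 2-fold was found at 2 lower peaks and 1 higher peak, against 0.224% and 0.313% of all peaks. The counts depend on single libraries: without Hox13-/- replicate 1, 5 peaks were lower and 14 higher, and the lower count was 9 without wild-type replicate 1 and 7 without Hox13-/- replicate 2. The error in limma is drawn from all peaks together, and its standard errors ran from 0.07 to 0.13. With the spread of each peak alone 0 peaks were called here or elsewhere, although 23 of the 109 and 10889 of all peaks had an unadjusted p under 0.05.

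**Figure D1:**
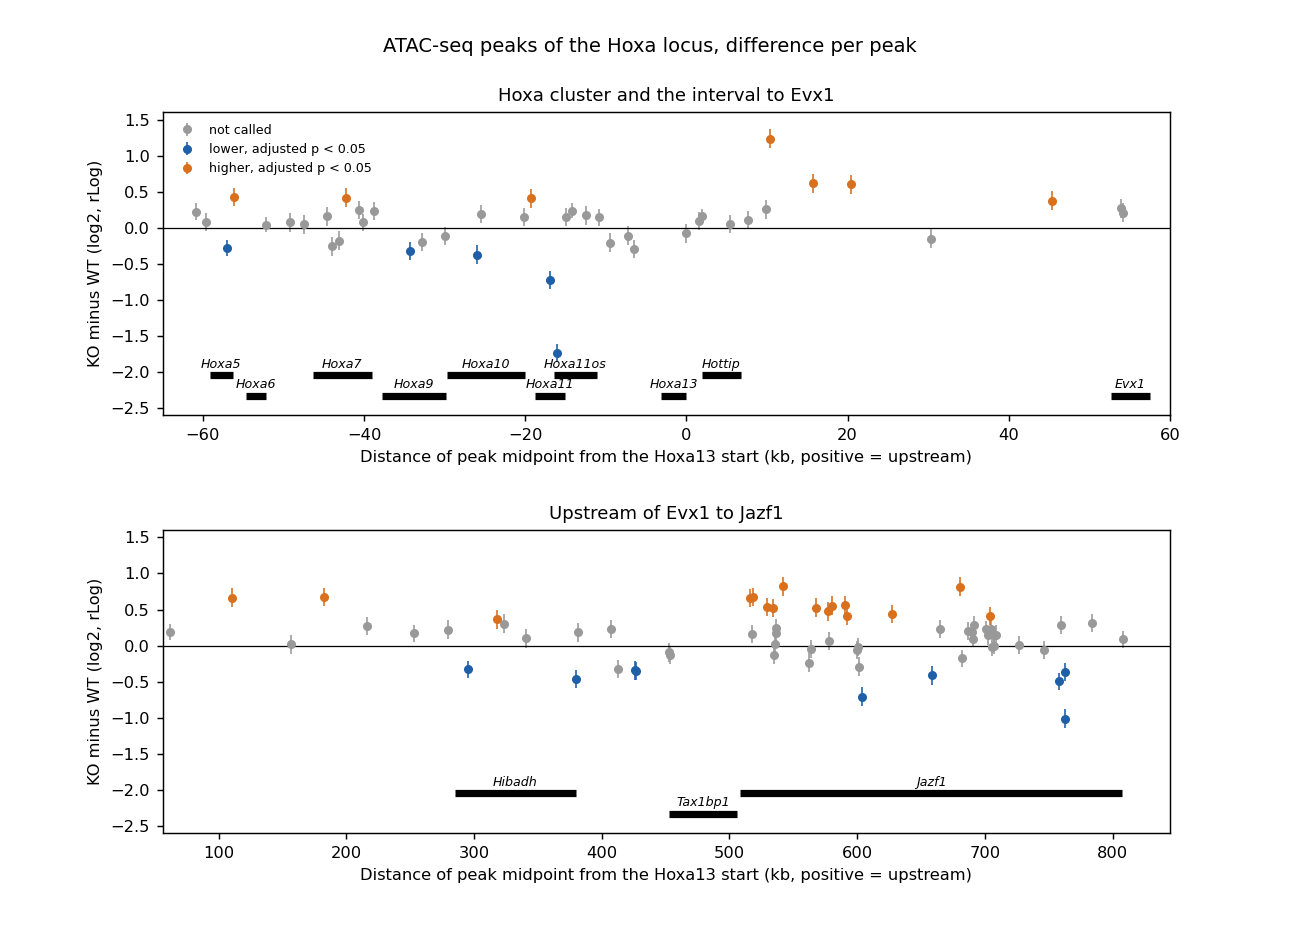
Difference in accessibility (Hox13-/- minus wild type, rLog, log2 scale) of each peak against the distance of its midpoint from the Hoxa13 start in kb, with the cluster and the interval to Evx1 above and the remaining landscape below. Points are peaks coloured by call, vertical bars are the standard error from limma, and black bars are genes; the cluster holds the lowest peak (−1.74) and the interval between Hoxa13 and Evx1 the highest (1.23).

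Outside Hoxa11 the differences in the Hoxa cluster were modest, and peaks were called about as often as over all peaks. Of its 31 peaks, 5 were lower and 3 higher, with a median difference of 0.07. As reference, of the 3 peaks over Hoxa11, those at −16.9 kb and −16.1 kb were lower (−0.72 and −1.74, limma adjusted p = 8.32e-07 and 9.53e-37), and the peak over the shared start region of Hoxa11 and its antisense transcript Hoxa11os had a difference of 0.15 (adjusted p = 0.446). The lower peak at −16.1 kb also lay within 500 bp of an annotated start of Hoxa11os, so 1 of the 2 start-site peaks of that transcript was lower. Without the 3 Hoxa11 peaks, 3 of 28 were lower and 3 higher, all within 0.43. That is 10.7% each way, near the 8.31% lower and 11.4% higher of all peaks. The count of 5 lower peaks fell to 3 without either wild-type replicate and to 2 without either Hox13-/- replicate, and the count of 3 higher peaks fell to 1 without wild-type replicate 2 or Hox13-/- replicate 1, and to 2 without either of the others.

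Hoxa9, a posterior Hox gene of the upper limb, had a peak over an annotated start at −34.3 kb (52226032 to 52227079, in an exon). Its rLog was 7.65 and 7.68 in wild type against 7.43 and 7.25 in Hox13-/-. Both mutant libraries were the lower ones, and the difference of −0.32 ± 0.12 (SE) was close to the threshold (limma adjusted p = 0.0482). The call was lost whichever library was left out and with quantile normalization, cyclic loess normalization or a replicate block, with an adjusted p of up to 0.362. Hoxa10, which also acts in the proximal limb, had 3 start-site peaks. The one at −25.9 kb was at 5.54 and 5.70 in wild type against 5.29 and 5.19 in Hox13-/-, without overlap, and was lower by 0.37 on average (difference −0.37 ± 0.13, limma adjusted p = 0.0263). That call was lost without wild-type replicate 2 or either Hox13-/- library and with a GC correction, with an adjusted p of up to 0.224. The other Hoxa10 start-site peaks, at −25.5 kb and −20.1 kb, had differences of 0.19 and 0.15 and were not called (adjusted p = 0.287 and 0.434). Thus 1 of the 3 Hoxa10 start-site peaks was called.

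Higher peaks of the cluster lay over starts of Hoxa5 and Hoxa7, which lie further towards the 3′ end of the cluster, and between Hoxa10 and Hoxa11. Hoxa5 also had a weak lower peak in an exon at −57.0 kb, 651 bp from its start-site peak (−0.29 ± 0.11, limma adjusted p = 0.049). That call was kept in 2 of the 11 alternatives with a shared spread in which the peak was tested. It was lost with quantile or cyclic loess normalization, a replicate block, a GC correction, no variance trend or a robust shared spread. It was also lost without wild-type replicate 1 or either Hox13-/- replicate, and the difference ran from −0.43 to −0.14 leaving out 1 library. At the Hoxa5 start (−56.1 kb) the libraries read 4.05 and 3.93 in wild type against 4.33 and 4.50 in Hox13-/-. At the Hoxa7 peak at −42.2 kb they read 4.92 and 5.02 against 5.48 and 5.29, and at the intergenic peak at −19.3 kb 3.93 and 3.75 against 4.31 and 4.19. Every mutant value exceeded both wild-type values at these 3 peaks, with differences of 0.43, 0.42 and 0.41 (SE 0.13 each, limma adjusted p = 0.0081, 0.0116 and 0.0116). The call at the Hoxa5 start was lost without wild-type replicate 2 or Hox13-/- replicate 2. That at Hoxa7 was lost without replicate 1 of either genotype, that between Hoxa10 and Hoxa11 without wild-type replicate 2 or Hox13-/- replicate 1, and the latter 2 also with a GC correction, and the highest adjusted p at these 3 peaks was 0.188. Hoxa7 also had start-site peaks at −44.0 kb and −43.1 kb with negative differences, −0.26 and −0.18, that were not called (adjusted p = 0.158 and 0.337). The Hoxa6 start had a difference of 0.04 (adjusted p = 0.814). The strongest peak of the locus, at −38.8 kb, overlapped the edge of Hoxa7, with its midpoint between Hoxa7 and Hoxa9. It stood at 8.17 and 8.22 in wild type against 8.59 and 8.26 in Hox13-/- and was not called (0.23 ± 0.12, adjusted p = 0.177). It was called higher after quantile (0.33, limma adjusted p = 0.0178) or cyclic loess normalization (0.37, limma adjusted p = 0.0125), and the difference was 0.065 without Hox13-/- replicate 1.

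Hoxa13 itself kept an open start site in the mutant libraries. Its single peak (52260663 to 52261042) read 5.71 and 5.95 in wild type against 5.66 and 5.84 in Hox13-/-, with overlapping genotypes and a difference of −0.08 (95% interval −0.33 to 0.18, adjusted p = 0.708). Hottip, the long noncoding RNA transcribed away from Hoxa13, had weak start-site peaks with differences of 0.09 and 0.16 (adjusted p = 0.621 and 0.275). The stretch of 6 peaks from the Hoxa13 start to +9.8 kb had differences from −0.08 to 0.25. It was ended just before the first higher peak and so could hold no higher call. Of its peaks 0 were called lower, against 8.31% of all peaks.

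Directly beyond this stretch lay the peak with the largest increase of the locus. The intergenic peak at +10.3 kb (52270884 to 52271574), between Hottip and Evx1, had an rLog of 5.81 and 5.56 in wild type against 6.98 and 6.86 in Hox13-/-. The genotypes were far apart relative to their replicates, with SDs of 0.18 and 0.079 (n = 2 each). The difference was 1.23 ± 0.13 (SE), a 2.35-fold increase (limma adjusted p = 5.63e-19), which ranked 43 among all 61954 peaks by increase. It was already called as a peak in wild-type replicate 1 by the authors, in addition to both mutant libraries.

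The neighbouring intergenic peaks rose as well, by less. The peak at +15.7 kb, with 1 TCGTAAA, read 6.60 and 6.52 in wild type against 7.17 and 7.19 in Hox13-/-, a difference of 0.61 ± 0.13 (limma adjusted p = 3.16e-05). The peak at +20.4 kb read 4.72 and 4.63 against 5.46 and 5.11, a difference of 0.60 ± 0.13 (limma adjusted p = 8.52e-05), and the authors called it in the mutant libraries alone. Neither pair of genotypes overlapped, and the call at +20.4 kb was lost without Hox13-/- replicate 1 (adjusted p = 0.0566). A run of 3 consecutive peaks over 10.59 kb was thus higher in Hox13-/-. Of the 12 peaks between the Hoxa13 start and the end of Evx1, 6 had an unadjusted p under 0.05, and the median difference was 0.23. Against 11.4% and 8.31% of all peaks, 4 of the 12 were higher and 0 lower. The fourth, at +45.3 kb, had a difference of 0.38 (limma adjusted p = 0.0236) that was lost without wild-type replicate 1 or either mutant library and with quantile normalization. Evx1 had no peak within 500 bp of its start, and the 2 start-site peaks of its antisense transcript Evx1os differed by 0.27 and 0.21 without a call (adjusted p = 0.136 and 0.25).

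In the gene-poor stretch from Evx1 to Hibadh all 7 peaks had positive differences, and 2 were called higher. Of all 61954 peaks, 30482 had positive differences and 11.4% were called higher. The peak at +110.3 kb read 5.31 and 5.37 in wild type against 6.05 and 5.96 in Hox13-/- (0.67 ± 0.13, limma adjusted p = 9.25e-06). The peak at +182.6 kb, which was open in all 4 libraries, read 6.83 in both wild-type libraries and 7.45 and 7.57 in Hox13-/- (0.68 ± 0.13, limma adjusted p = 2.43e-06). In both cases the spread within a genotype was far smaller than the difference, and both calls were kept under every alternative that shared the spread between peaks and set no other threshold.

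Around Hibadh and Tax1bp1 4 peaks were called lower and 1 higher, and all 4 lower calls were lost without Hox13-/- replicate 1. Hibadh held 5 peaks, 2 lower and 1 higher, the stretch from there to Tax1bp1 5, 2 lower and 0 higher, and Tax1bp1 2, neither called. Of all peaks, 8.31% were lower and 11.4% higher. The Hibadh start at +379.4 kb (52639952 to 52640678), among the 5 strongest peaks of the locus, read 8.01 and 8.06 in wild type against 7.48 and 7.67 in Hox13-/-. Both mutant libraries were lower, by 0.46 ± 0.12 on average (difference −0.46, limma adjusted p = 0.00233), and the call was lost without Hox13-/- replicate 1 (adjusted p = 0.119). It was the single upstream start site that was called. Within the introns of Hibadh 1 weak peak was lower and 1 higher, and both calls were lost with a GC correction, without wild-type replicate 1 and without either mutant library. Between Hibadh and Tax1bp1 2 of 5 peaks, 195 bp apart, were lower, calls that were lost whichever library was left out. The 2 start-site peaks of Tax1bp1 differed by −0.09 and −0.13 and were not called (adjusted p = 0.654 and 0.502).

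Jazf1 held 46 of the 78 upstream peaks, and 13 of them, all in introns, were higher and 5, also in introns, lower. These were 28.3% and 10.9% of its peaks, against 11.4% and 8.31% of all peaks, so the lower share was near that of all peaks. Its own start, at +808.0 kb, was weak and differed by 0.09 (adjusted p = 0.637). The higher peaks gathered towards its 3′ end, the side facing Hoxa13. From 52776537 to 52853034, 10 of 18 peaks over 76.498 kb were higher, with differences of 0.40 to 0.82, and the 8 others lay between −0.24 and 0.24. This stretch was delimited after the values were seen, from the first to the last higher peak before the first lower one. It could therefore hold no lower peak, and its share of higher peaks is not a test.

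The strongest increase of this group was the peak at +541.5 kb (52802029 to 52802830), at 6.53 and 6.29 in wild type against 7.28 and 7.18 in Hox13-/-. The genotypes did not overlap, and the difference was 0.82 ± 0.13, a 1.77-fold increase (limma adjusted p = 8.02e-09). The peak at +516.1 kb read 6.46 and 6.58 against 7.14 and 7.23 (0.66 ± 0.13, limma adjusted p = 5.32e-06), and that at +518.7 kb 6.67 and 7.00 against 7.52 and 7.50 (0.68 ± 0.13, limma adjusted p = 2.54e-06). Between them, at +517.8 kb, a peak of similar strength differed by 0.16 and was not called (adjusted p = 0.38). Differences between neighbouring peaks were not tested. The peaks at +577.0 kb and +577.7 kb were 55 bp apart. The first read 5.84 in both wild-type libraries and 6.43 and 6.20 in Hox13-/- (0.47 ± 0.13, limma adjusted p = 0.00271), whereas the second, with 7.68 and 7.87 against 7.87 and 7.81, overlapped between genotypes (0.06, adjusted p = 0.764). The call at +577.0 kb was lost without Hox13-/- replicate 1. The other 6 higher peaks of the stretch, at +529.3, +534.2, +567.9, +580.0, +590.2 and +591.7 kb, had differences of 0.53, 0.52, 0.52, 0.55, 0.56 and 0.40 (limma adjusted p from 0.000314 to 0.00909). Of these, those at +529.3 and +580.0 kb stayed called whichever library was left out. The call at +534.2 kb was lost without wild-type replicate 1, that at +567.9 kb without wild-type replicate 2, and those at +590.2 and +591.7 kb without wild-type replicate 2 or Hox13-/- replicate 1, the latter also with a GC correction.

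Further into Jazf1 the peak at +680.2 kb (52940851 to 52941276) was called by the authors in both mutant libraries and in neither wild-type library. It read 4.22 and 4.58 in wild type against 5.28 and 5.15 in Hox13-/-, without overlap, a difference of 0.82 ± 0.13 (limma adjusted p = 3.13e-08). The 2 remaining higher peaks, at +627.0 and +703.7 kb, had differences of 0.44 and 0.41 (limma adjusted p = 0.00682 and 0.0116). The first call was lost without Hox13-/- replicate 2 and the other without wild-type replicate 2 or Hox13-/- replicate 1 and with a GC correction. From +682.0 to +727.0 kb, in a dense group of 14 peaks, the one at +703.7 kb was the single called peak, where 19.7% of all peaks were called. The bounds of this group were set after the values were seen, starting just past the higher peak at +680.2 kb, so its share is not a test.

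Lower peaks of Jazf1 lay from +604.1 kb onward, towards its 5′ end. At +762.8 kb (53023501 to 53023879), in an intron, the libraries read 6.09 and 6.07 in wild type against 4.98 and 5.16 in Hox13-/-. The replicates of each genotype lay close together, and the difference of −1.01 ± 0.13 was a 2.02-fold decrease (limma adjusted p = 1.29e-12). It ranked 130 by decrease among all peaks and was called by the authors in both wild-type libraries and in neither mutant library. Its immediate neighbour at +763.1 kb, 22 bp away, read 4.13 and 3.81 against 3.57 and 3.65 (−0.36 ± 0.12, limma adjusted p = 0.0244), a call lost without wild-type replicate 1 or either mutant library. The weak peak at +758.1 kb read 3.84 and 3.81 against 3.34 and 3.32 (−0.50 ± 0.12, limma adjusted p = 0.000695), with hardly any spread within either genotype. Among them, at +759.6 kb, stood a stronger peak with a positive difference of 0.28 that was not called (adjusted p = 0.102), so the lower accessibility was not that of the whole 5.262 kb. The remaining lower Jazf1 peaks were at +604.1 kb and +658.3 kb. The former, called by the authors in the wild-type libraries alone, read 4.64 and 4.85 in wild type against 3.98 and 4.09 in Hox13-/- (−0.71 ± 0.13, limma adjusted p = 1.71e-06). The latter read 5.09 and 4.98 against 4.57 and 4.67 (−0.41 ± 0.13, limma adjusted p = 0.0128), and was lost without replicate 1 of either genotype.

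**Figure D2:**
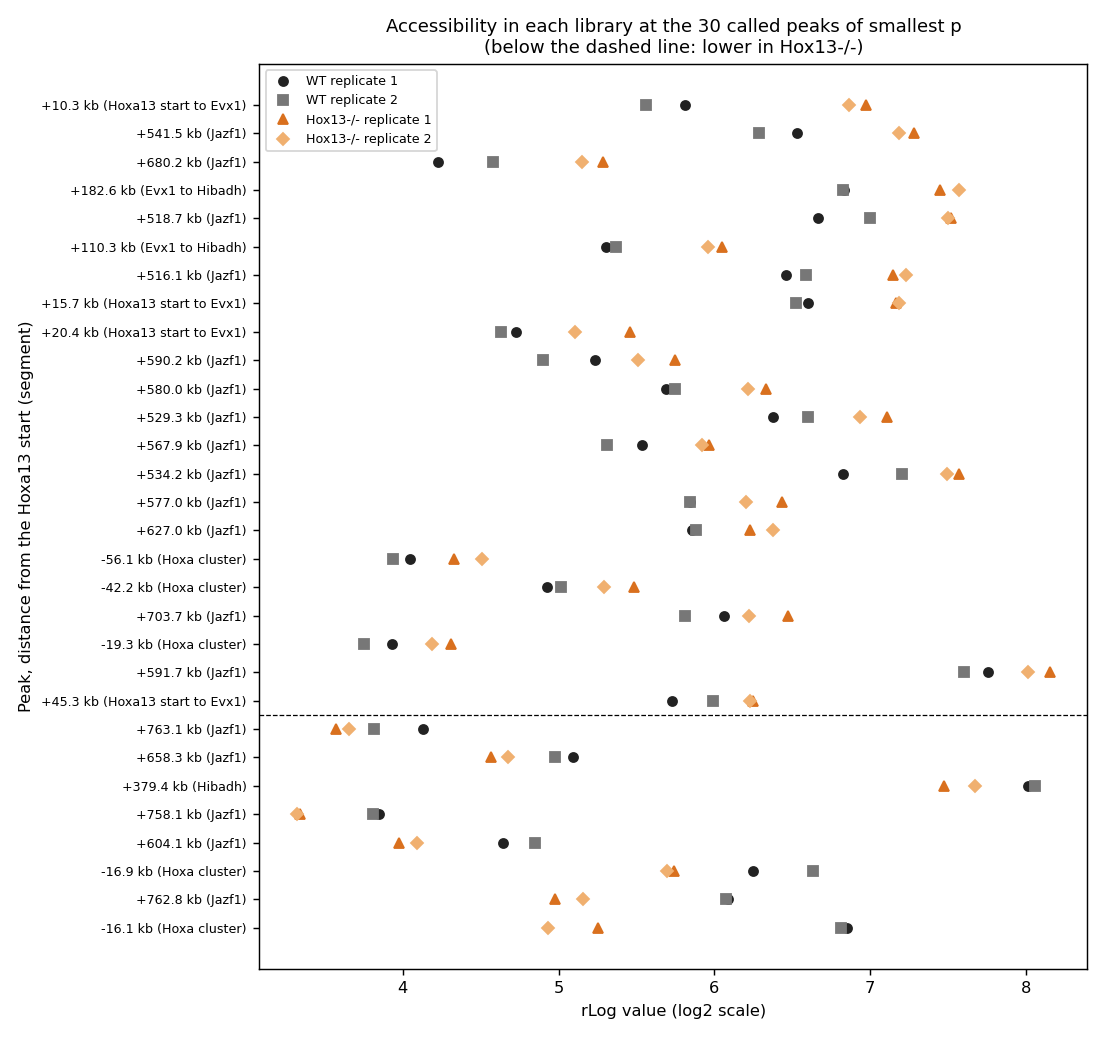
rLog accessibility (log2 scale, horizontal axis) of the 30 called peaks of smallest p in each of the 4 libraries, 1 peak per line, with peaks lower in Hox13-/- below the dashed line. Symbols are libraries. At each of these peaks both mutant libraries lie on the same side of both wild-type libraries, which picking peaks by small p favours. Of all peaks, 29.7% are separated in this way with the mutant above and 29.6% with it below. The separation is widest at −16.1 kb, +10.3 kb and +762.8 kb.

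Upstream of Hoxa13 as a whole, 20 of 78 peaks were higher, 9 lower and 49 not called, with a median difference of 0.17 and positive differences at 55. Of all 61954 peaks, 11.4% were higher, 8.31% were lower and 30482 had positive differences. The upstream share of higher peaks was thus above that of all peaks, whereas the upstream share of lower peaks was near it. Without Hox13-/- replicate 1 there were 13 higher and 3 lower peaks, without Hox13-/- replicate 2 17 and 5, and without wild-type replicate 1 17 and 6. Of the 20 peaks at starts of the 14 listed genes, 13 of which had such a peak, 4 were lower, 2 higher and 14 not called, with a median difference of 0.07. The 4 lower ones include the Hoxa11 reference peak at −16.1 kb, which lay near a start of Hoxa11os. Over all 17525 peaks within 500 bp of a start 8.93% were lower and 1.65% higher, and start-site peaks were not tested against the other upstream peaks. The plot of cumulative differences shows the upstream peaks to the right of all peaks over most of its range.

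**Figure D3:**
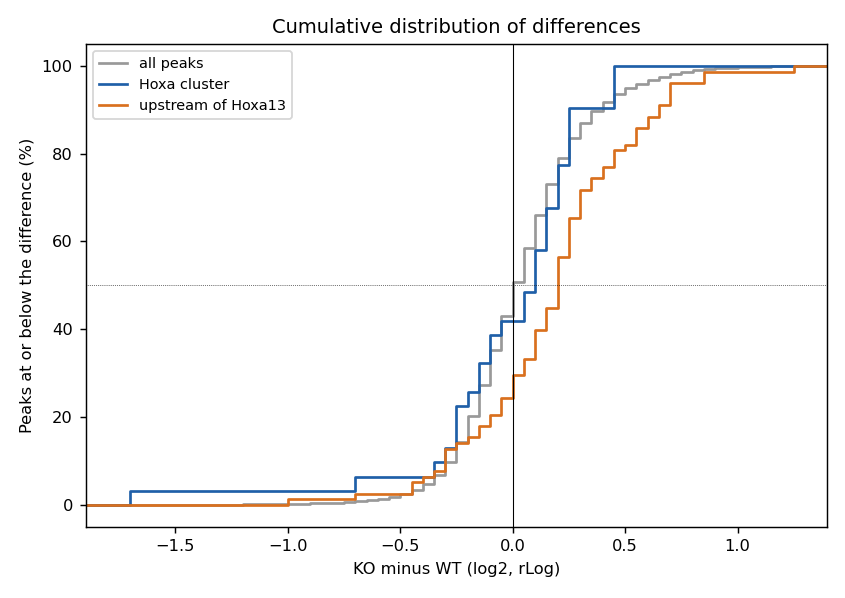
Share of peaks (%) at or below a given difference (Hox13-/- minus wild type, rLog, log2 scale) for all 61954 peaks, the 31 peaks of the Hoxa cluster and the 78 peaks upstream of Hoxa13. The upstream line crosses 50% further to the right (median 0.17) than the lines of the cluster (0.07) and of all peaks (−0.01).

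Lengths and signals of the called upstream peaks are given as a description, without a test. The 20 higher upstream peaks were 576.5 bp long at the median, with a median rLog of 5.86 in wild type and 6.33 in the mutant. The 9 lower ones were 196 bp long at the median, with a median rLog of 4.75 in wild type and 4.03 in the mutant. Over all peaks the medians were 395.5 bp and a wild-type rLog of 5.12 for higher peaks and 315 bp and 5.43 for lower peaks. The authors had called 16 of the 20 higher upstream peaks (80.0%) in at least 1 wild-type library, and 12 of the 13 in Jazf1, against 41.1% of all higher peaks. Most higher upstream peaks were thus called open in wild type as well. Of the 9 lower upstream peaks, 6 were called in wild-type libraries alone, as were 50.9% of all lower peaks. Within the upstream landscape, 0 of the 20 higher peaks and 1 of the 9 lower peaks lay within 500 bp of an annotated start, against 4.12% of all higher and 30.4% of all lower peaks.

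Since differences spread more widely at some signal levels than at others, each peak was also set against all peaks of like mean rLog. Of the 109 peaks, 2 lay above and 6 below the central 95% of all peaks in their signal bin, where by definition 2.5% of all peaks lie on each side. Those above were the peaks at +10.3 kb and +680.2 kb. Those below were both Hoxa11 reference peaks, the Hibadh start and the Jazf1 peaks at +604.1, +758.1 and +762.8 kb. Of the 23 higher peaks, 21 lay inside, including 12 of the 13 in Jazf1. With the exception of the peak at +680.2 kb, the increases in the Jazf1 introns were thus within the central range of peaks of similar signal.

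**Figure D4:**
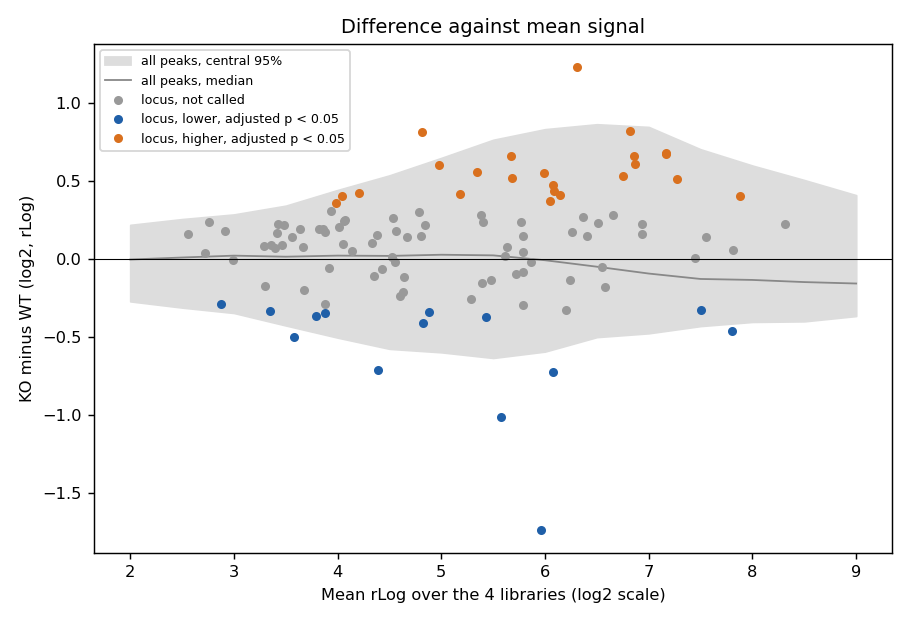
Difference (Hox13-/- minus wild type, rLog, log2 scale) against the mean rLog of the 4 libraries for the 109 peaks of the locus, coloured by call, over the central 95% (grey band) and median (line) of all 61954 peaks in bins of mean signal. The peaks at 1.23, −1.01 and −1.74 lie well outside the band, whereas most higher peaks lie inside it.

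HOX13 letters were more frequent in the locus than over all peaks. CAATAAA or TCGTAAA occurred in 19 of 109 peaks (17.4%), against 7.54% of all peaks, and in 5 of the 20 higher and 1 of the 9 lower upstream peaks (12.8% of all higher and 13.97% of all lower peaks). The broader form was found in 41 peaks (37.6%) against 22.9%, and in 8 of the 20 higher and 3 of the 9 lower upstream peaks (33.7% of all higher and 42.3% of all lower peaks). The locus is less GC-rich than all peaks (median GC 50.3% against 52.1%) and its peaks are longer (median 296 bp against 250 bp), both of which bear on how often such letters occur. In windows of 300 bp the shares were 15.6% against 7.61% for CAATAAA or TCGTAAA and 37.6% against 24.1% for the broader form. In such windows CAATAAA or TCGTAAA occurred in 3 of the 20 higher and 1 of the 9 lower upstream peaks (9.32% of all higher and 14.2% of all lower peaks). The broader form occurred in 8 and 3 of them (25.9% and 43.7%). The core of the CTCF motif, a protein that bounds chromatin loops, was present in 1 of the 109 peaks, at +727.0 kb in Jazf1, against 2.91% of all peaks. That peak read 7.39 and 7.49 in wild type against 7.37 and 7.52 in Hox13-/-, overlapped between genotypes and differed by 0.00 (adjusted p = 0.983). An exact match to the CTCF core was required, so its absence from a peak does not show that CTCF is not bound there.

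Facts of the libraries that could move with these results were as follows. The authors' caller found 38401 and 27241 peaks in wild type against 38621 and 45587 in the mutant, and within the locus 64 and 49 against 73 and 85, so statements on where a peak was called move with the library. The root mean square difference between replicates over all peaks was 0.18 in both genotypes. All 5 limb mesenchyme marker genes (Prrx1, Prrx2, Twist1, Msx1, Tbx5) had start-site peaks, 7 in all, of which 1 was lower and 0 higher, with rLog values summing to 38.6 and 39.4 in wild type against 39.0 and 38.4 in the mutant. Start-site peaks were listed for 1 of 6 ectoderm and ridge genes, 2 of 4 endothelial genes, and 0 of 4 muscle precursor and 0 of 4 blood genes, and none of these was called, with sums of 2.91 and 2.68 against 2.67 and 2.63 for ectoderm and 12.5 and 12.3 against 12.6 and 12.2 for endothelium. Their part in the result was not tested. The Hoxd13 start-site peaks, on chromosome 2, differed by −0.52 and −0.26, the first of which was called (limma adjusted p = 0.000608); an open start site does not test whether an allele is null.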

How the data were processed

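ATAC-seq libraries of 2 wild-type and 2 Hox13-/- distal forelimb buds were used. Per the labels and the study's methods, the authors aligned reads to mm10 with Bowtie2 2.3.1, processed them with SAMtools 1.4.1 and HOMER 4.9.1, called peaks per library with MACS2 2.1.1.20160309, merged them and deposited DESeq2 rLog values (log2 scale) for 61954 peaks on 19 autosomes. Handling of duplicates, blacklisted regions and the Tn5 offset is not given in the sources used here. The authors also deposited fold changes, p-values and adjusted p-values, which were not used.

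Differences were fitted over all peaks with limma 3.58.1 (R 4.3.3, genotype term, variance trend, two-sided, Benjamini-Hochberg adjustment, threshold 0.05). The procedure was first run on simulated data that had the same spread at every peak, so that run cannot show how it performs where peaks differ in spread. rLog is shrunk, so folds understate changes of weak peaks. Sequence and repeats came from GRCm38 (pysam 0.24.0), and genes from GENCODE M21 basic. Start-site peaks lie within 500 bp of an annotated start. Motifs were counted on both strands of the whole peak; a match to CAATAAA can also match the broader form. Tables and figures used Python 3.11.15, pandas 2.3.3, numpy 2.4.6 and matplotlib 3.10.9. Coordinates are as listed.

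Peaks named were the 30 called peaks of smallest p, start-site peaks of 14 genes, the 5 of strongest signal and the Hoxa11 reference peaks. Peaks beside a named peak, the peak with the CTCF letters and the stretches of Jazf1 and of Hoxa13 were chosen after their values were seen, as were the broader form of the motif and the comparison by signal bin. The members and lists were chosen with earlier results of these data known. The labels give both genotypes replicates 1 and 2; the replicate differences of the genotypes correlated at −0.01 over all peaks, so the numbers do not pair the libraries. Separate embryos serve as replicates, and 2 against 2 cannot reach a p of 0.05 by permutation. Alternatives were other scalings, spreads, filters and thresholds, a block by replicate number, a correction for GC content and fits that left out a library.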

Additional observations from a re-analysis of the deposited data

How the results depend on the processing

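With no spread shared between peaks, 0 peaks were called in any of the 7 counts (the lowest adjusted p was 0.205 in the locus and 0.171 over all peaks, and 17 of the 37 called peaks had an unadjusted p under 0.05). Leaving out 1 library gave 5 to 11 lower and 14 to 19 higher peaks in the locus, 2 to 3 lower and 1 to 2 higher in the cluster, 3 to 8 lower and 13 to 17 higher upstream, and 19 to 26 called among the named peaks (32 in the main result). Keeping the upper 50% of peaks by signal gave 8 lower peaks in the locus, 1 higher in the cluster and 4 lower upstream. Quantile and cyclic loess normalization each gave 3 lower peaks in the cluster. Beyond 2-fold there were 2 lower and 1 higher in the locus, 1 and 0 in the cluster and 1 and 1 upstream; at an adjusted p under 0.01, 6 lower in the locus, 2 lower and 1 higher in the cluster and 4 lower upstream.

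The replicate numbers did not pair the libraries. With the replicate block 12 peaks were lower and 23 higher in the locus, 3 and 3 in the cluster and 9 and 20 upstream.

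Of the 37 called peaks, 15 (5 lower, 10 higher) stayed called under each of the 13 alternatives with a shared spread and no other threshold in which they were tested, and 8 of the 72 others were called under at least 1. Leaving out 1 library changed the sign at 24 of the 72 uncalled peaks, among them +727.0 kb (−0.071 to 0.081). Among the uncalled peaks named by the rule, the sign changed at the Hoxa6 start (−0.058 with the GC correction, −0.089 to 0.17 leaving out 1 library), the Hoxa13 start (0.063 and −0.19 to 0.036), the Hottip peak at +1.6 kb (−0.00063 to 0.19 leaving out 1 library), the Tax1bp1 peak at +452.9 kb (0.022 with the GC correction, −0.24 to 0.053 leaving out 1 library) and the Jazf1 peaks at +577.7 kb (−0.034 to 0.16) and +707.0 kb (−0.051 to 0.34). The depth behind rLog values is unknown, so weak peaks may hide differences that could not be detected.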
